A study of Mus musculus with 12 samples.

Results

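The miR-101 family was examined in the liver of adult male mice from a design that crossed the mother's diet with the son's own diet. Its members were chosen by name, as every listed row for an arm of miR-101a, miR-101b or miR-101c, and 4 of the 386 mature miRNA rows met this rule. They were miR-101b-3p, miR-101a-3p, miR-101c and miR-101a-5p. The suffixes 3p and 5p name the 2 arms of a miRNA hairpin. miR-101b-5p was not analysed here. Both 3p arms were among the most abundant miRNAs of these livers, at ranks 16 and 17, and the 5p arm was far lower. No member passed the test in any comparison of the diets, where at most 0.777% of all rows passed.

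All 12 libraries came from wild-type sons of the C57BL/6 strain, killed in a fasted state at postnatal day 84, with 3 libraries in each of 4 groups. In the group names the first letter is the mother's diet and the second the son's, O for obesogenic and C for control. OO sons and their mothers both had the obesogenic diet, CO sons had it after control mothers, OC sons had control chow after obesogenic mothers, and CC sons and mothers both had control chow. The obesogenic diet held 20% lipids and 10% simple carbohydrates by weight and was given with sweetened condensed milk, and the chow (RM1) held 3% lipids and 7% simple carbohydrates. Mothers stayed on their diet through pregnancy and nursing, litters were brought to 6 pups on day 3, and sons were weaned onto either diet on day 21. Depth ran from 5.45 to 22.2 M reads a library, where M reads stands for mega-reads. The labels do not name each son's mother, so sons of 1 litter may be present, and the p-values below rest on library-to-library spread alone. A number shared by the titles of OO replicate 3 and OC replicate 2 is not explained by the labels and may or may not mark a common mother. Sample titles of sons of obesogenic and of control mothers differ in their stem throughout, and whatever lies behind the stem cannot be told apart from the maternal diet. RNA came from whole liver, so fewer cells of a type and less miRNA per cell cannot be told apart.

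A miRNA gene is transcribed into a hairpin, from which the enzymes Drosha and Dicer cut a short duplex. Usually 1 arm is kept in an Argonaute protein and the other is degraded, and the kept arm guides repression of mRNAs through its seed, here bases 2 to 8 from the 5′ end. The kept arm of the miR-101 family is the 3p arm. It is known as a repressor of Ezh2, the histone methyltransferase of Polycomb repressive complex 2, and of the survival gene Mcl1, and it has been reported lower in human hepatocellular carcinoma than in the liver around it.

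The mature sequences are shown first because they decide which reads the rows can share. They are from RefSeq, build GRCm38.p6, written 5′ to 3′ with the seed in capitals.
miR-101a-3p: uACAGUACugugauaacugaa
miR-101c: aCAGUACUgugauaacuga
miR-101b-3p: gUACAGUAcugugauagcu
miR-101a-5p: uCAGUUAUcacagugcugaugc
miR-144-3p: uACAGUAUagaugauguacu
miR-101a-3p lies at chr4:101346957-101346977 on the minus strand, miR-101c at chr9:3038680-3038698 on the minus strand and miR-101b-3p at chr19:29135338-29135356 on the plus strand. miR-101a-5p lies at chr4:101346993-101347014 on the minus strand. miR-144-3p, at chr11:78073047-78073066 on the plus strand, is not a member. Of the 322 rows matched to RefSeq, it was the only one outside the family that shared bases 2 to 7 with a member.

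The whole 19-base sequence of miR-101c, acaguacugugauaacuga, is contained in miR-101a-3p from its base 2 on. miR-101b-3p and miR-101a-3p share a run of 15 bases, uacaguacugugaua, which begins at base 2 of miR-101b-3p and base 1 of miR-101a-3p. The 3 annotated 5′ ends are thus offset from each other, and bases 2 to 8 read ACAGUAC in miR-101a-3p, CAGUACU in miR-101c and UACAGUA in miR-101b-3p. No 2 members share a seed as annotated. A read of the whole of miR-101a-3p would contain miR-101c, and a read of the 19 bases of miR-101c alone would match both genes.

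The hairpins show where the arms sit and how the 3 genes differ around them. They are from GENCODE vM21 transcripts on GRCm38, with the annotated mature arms in capitals.
Mir101a: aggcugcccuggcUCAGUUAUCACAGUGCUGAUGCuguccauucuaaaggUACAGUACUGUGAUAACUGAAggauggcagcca
Mir101b: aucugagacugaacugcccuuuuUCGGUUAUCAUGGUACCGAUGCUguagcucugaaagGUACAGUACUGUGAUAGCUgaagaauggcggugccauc
Mir101c: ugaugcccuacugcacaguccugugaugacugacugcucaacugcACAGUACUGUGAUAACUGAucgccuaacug
Mir101a (chr4:101346945-101347027, minus strand) overlaps an exon of the long non-coding RNA E130102H24Rik. Mir101b (chr19:29135279-29135375, plus strand) lies in an intron of Rcl1, a gene of ribosomal RNA processing. Mir101c (chr9:3038669-3038743, minus strand) lies between genes. None of the 3 has another annotated miRNA gene within 1 Mb. Both Mir101a and Mir101c hold the miR-101c sequence, but the base before it is U in Mir101a and C in Mir101c, and the base after it is A in Mir101a and U in Mir101c. A read that runs 1 base past either end of the shared sequence can therefore be assigned to one of the genes, and no source used here gives the rule for reads that match both.

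The miR-101c and miR-101a-3p rows were almost the same in every library. The miR-101a-3p row held 0 to 8 reads more than the miR-101c row, against 46876 to 180472 reads in miR-101a-3p itself, and the difference was 0 only in CC replicate 3. These reads were obtained from the deposited values, counts scaled to a fixed library total and abbreviated CPM, which were whole multiples of 1 step in each library. Every column also summed to more than the total it had been scaled to, by 56558 to 219376 reads, or 0.866% to 1.17% of that total. The reads of the miR-101c row made up 76.3% to 85.9% of this excess. Without the miR-101c row the remaining excess was 9683 to 38907 reads. The values of the miR-101c row are therefore reported once, with those of miR-101a-3p, and are not treated as a measurement of the Mir101c gene. Another pair of rows, miR-28a-5p and miR-28c, was as close, with at most 4 reads between them in a library.

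**Figure D1:**
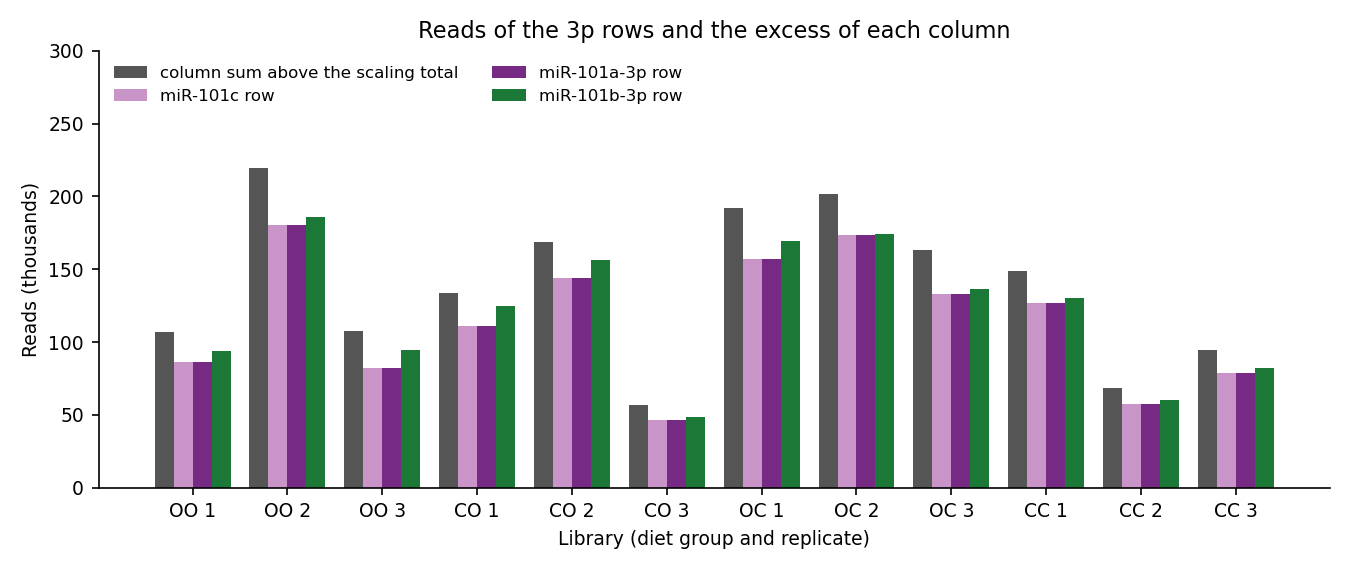
Reads in each of the 12 libraries (grouped by diet) for the excess of the column sum over the scaling total and for the miR-101c, miR-101a-3p and miR-101b-3p rows. The miR-101c and miR-101a-3p bars have the same height within 8 reads, and the miR-101c bar is 76.3% to 85.9% of the excess bar.

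miR-101b-3p was the highest member, at 8931 ± 920 CPM over the 12 libraries (SD), and ranked 16 of 386 rows by mean. miR-101a-3p averaged 8424 ± 951 CPM and ranked 17. miR-101a-5p averaged 17.2 ± 3.21 CPM and ranked 223. CPM is not divided by length, and the mature lengths are 19, 21 and 22 bases in this order. For comparison, miR-122-5p, the main hepatocyte-specific miRNA, ranked 11 with 2.32% of the summed values, against 0.884% for miR-101b-3p and 0.834% for miR-101a-3p. The 3 distinct rows together held 1.73 ± 0.183% of the values when the miR-101c row was left out of the sum, with a range of 1.47% to 2.02%.

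The 3p arms varied little between libraries. The highest library exceeded the lowest by 1.37 times for miR-101b-3p, 1.42 times for miR-101a-3p and 2.30 times for miR-101a-5p. The coefficient of variation was 10.3% for miR-101b-3p, 11.3% for miR-101a-3p and 18.6% for miR-101a-5p, against a median of 19.6% over all rows. Of those rows, 125 had a mean under 10 CPM, and the abundant miR-122-5p had 10.9%, close to the 3p arms. miR-101b-3p and miR-101a-3p varied together, with a Pearson r of 0.93 on log2(CPM + 1) over the 12 libraries and 0.94 after group means were removed. These points share the library, its scaling and possibly reads. The r of miR-101a-5p was 0.27 with miR-101a-3p, the other arm of its own hairpin, and 0.24 with miR-101b-3p. After group means were removed it was 0.46 with miR-101a-3p and 0.58 with miR-101b-3p.

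miR-101b-3p had 7873, 8649 and 9027 CPM in OO livers and 9509, 10460.5 and 8877 CPM in CO livers. In OC livers it had 7628, 10140.4 and 8069 CPM, and in CC livers 9793, 8062 and 9080 CPM. The highest libraries were CO replicate 2 and OC replicate 2, and the other 2 OC libraries were among the lowest 4. Group means were 8516 ± 589 CPM in OO, 9616 ± 797 in CO, 8612 ± 1341 in OC and 8978 ± 870.3 in CC (SD, n = 3 each). Ordered by level as CO, CC, OC and OO, neighbouring groups differed by less than their SD.

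miR-101a-3p was lower than miR-101b-3p in every library. It had 7201, 8382 and 7834 CPM in OO livers and 8461, 9602 and 8605 CPM in CO livers. In OC livers it had 7085, 10082.5 and 7878 CPM, and in CC livers 9528, 7699 and 8732 CPM. OC replicate 2 was the highest library and OC replicate 1 the lowest, so that the widest spread lay within a single group. Group means were 7806 ± 591 CPM in OO, 8889 ± 622 in CO, 8349 ± 1553 in OC and 8653 ± 917 in CC (SD, n = 3 each), in the same order of groups, and again neighbours differed by less than their SD.

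miR-101a-5p, the arm that is usually degraded, rested on far fewer reads. It had 15.5, 18.8 and 15.6 CPM in OO livers and 16.5, 18.8 and 9.18 CPM in CO livers. In OC livers it had 17.8, 19.4 and 18.4 CPM, and in CC livers 20.4, 15.0 and 21.1 CPM. CO replicate 3 was the lowest, from 50 reads, with a 95% Clopper-Pearson interval of 6.81 to 12.1 CPM, and the other libraries held 112 to 405 reads. Such intervals cover counting error only. Group means were 16.6 ± 1.90 CPM in OO, 14.8 ± 5.01 in CO, 18.5 ± 0.837 in OC and 18.8 ± 3.36 in CC (SD, n = 3 each).

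**Figure D2:**
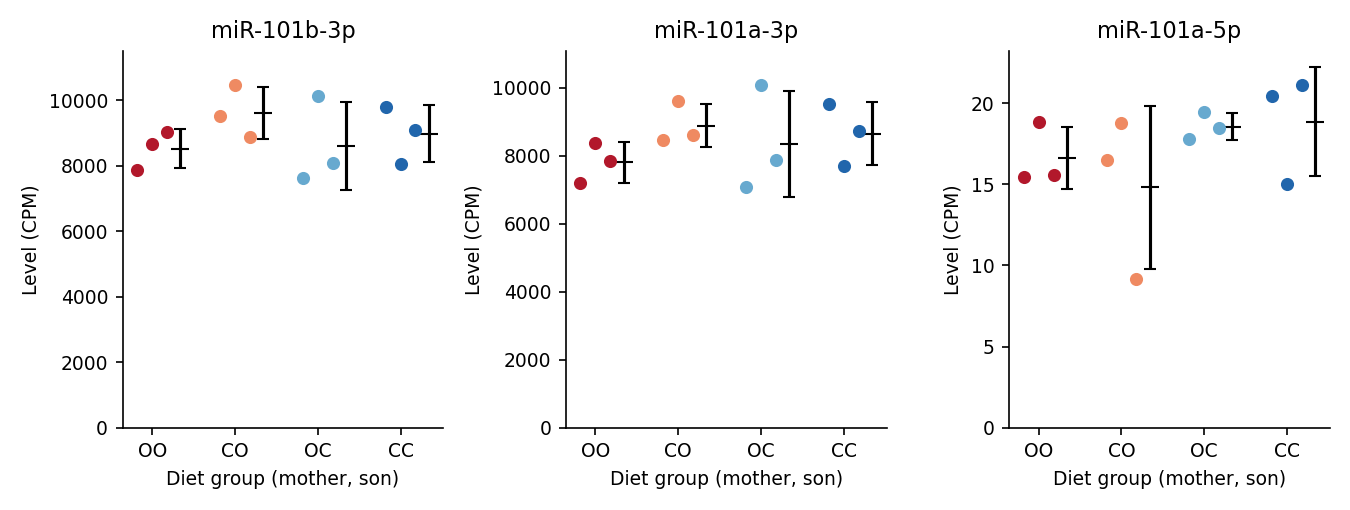
Level in CPM of miR-101b-3p, miR-101a-3p and miR-101a-5p in each library (points) by diet group, with the group mean and SD (black, n = 3 each). In the contrasts made, the groups separate only for miR-101a-3p, where the OO points reach 8382 CPM and the CO points begin at 8461 CPM, and CO replicate 3 stands apart at 9.18 CPM for miR-101a-5p.

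The first question of the design is what the sons' own obesogenic diet did, averaged over both maternal diets. No member passed. miR-101b-3p averaged 9066 ± 869 CPM in obesogenic-fed sons and 8795 ± 1031 CPM in control-fed sons (SD, n = 6 each). Its log2 change was 0.05 (SE 0.087, 95% interval -0.14 to 0.24, adjusted p = 0.864 by limma with Benjamini-Hochberg adjustment). miR-101a-3p averaged 8348 ± 804 CPM in obesogenic-fed sons and 8501 ± 1153 CPM in control-fed sons. Its log2 change was -0.02 (SE 0.094, 95% interval -0.23 to 0.19, adjusted p = 0.933 by limma), and the sign turned with the scaling, at 0.03 with factors from the trimmed mean of M-values (TMM).

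miR-101a-5p averaged 15.7 ± 3.53 CPM in obesogenic-fed sons and 18.7 ± 2.20 CPM in control-fed sons (SD, n = 6 each). The log2 change was -0.26 (SE 0.163, 95% interval -0.62 to 0.10, adjusted p = 0.493 by limma), and the unadjusted p of 0.137 was the lowest of any member in the 8 contrasts. Without CO replicate 3 the change was -0.12. Of all 386 rows, 0.777% passed in this contrast, 3 rows that were all lower in obesogenic-fed sons, so 0 of 4 members is near the background. The groups of 6 overlapped for every member, while 2.59% of all rows did not overlap.

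Within each maternal diet the values were as close. In CO against CC livers the log2 change was 0.10 for miR-101b-3p (adjusted p = 0.729), 0.04 for miR-101a-3p (adjusted p = 0.940) and -0.37 for miR-101a-5p (SE 0.231, 95% interval -0.88 to 0.14, adjusted p = 0.506), all by limma. The change of miR-101a-5p was the largest in size of any member in the 8 contrasts, and it was -0.08 without CO replicate 3. In OO against OC livers the log2 change was -0.01 for miR-101b-3p (adjusted p = 0.988), -0.08 for miR-101a-3p (adjusted p = 0.982) and -0.15 for miR-101a-5p (adjusted p = 0.982), by limma. The share of all rows that passed was 0.777% for CO against CC and 0.518% for OO against OC, and no member passed in either. The groups overlapped for every member in both, while 22.0% of all rows did not overlap in CO against CC and 15.5% in OO against OC.

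The second question is what the mother's obesogenic diet did, averaged over both diets of the sons. miR-101b-3p averaged 8564 ± 928 CPM in sons of obesogenic mothers and 9297 ± 824 CPM in sons of control mothers (SD, n = 6 each). miR-101a-3p averaged 8077 ± 1092 CPM in sons of obesogenic mothers and 8771 ± 712 CPM in sons of control mothers. The log2 change was -0.12 for miR-101b-3p (95% interval -0.31 to 0.07) and -0.13 for miR-101a-3p (95% interval -0.33 to 0.08), each with an adjusted p of 0.704 by limma. miR-101a-5p averaged 17.6 ± 1.68 CPM in sons of obesogenic mothers and 16.8 ± 4.41 CPM in sons of control mothers, with a log2 change of 0.10 (adjusted p = 0.802 by limma). No member passed, and 0.0% of all rows did by limma, with 27 rows at an unadjusted p under 0.05. By limma-voom 0 rows passed, while 1 row passed with log2 depth as a covariate and 1 with sample quality weights, neither of them a member. The groups overlapped for every member, while 0.777% of all rows did not overlap. Depth also differed with the maternal diet, averaging 14.7 ± 6.00 M reads in OO, 11.2 ± 5.04 in CO, 18.8 ± 2.97 in OC and 9.94 ± 3.02 in CC (SD, n = 3 each). With log2 depth as a covariate the maternal log2 change was -0.19 for miR-101b-3p, -0.19 for miR-101a-3p and -0.23 for miR-101a-5p.

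The maternal diet was then compared within each diet of the sons. In OO against CO livers the log2 change was -0.17 for miR-101b-3p (SE 0.123, 95% interval -0.44 to 0.09) and -0.19 for miR-101a-3p (SE 0.133, 95% interval -0.48 to 0.10), each with an adjusted p of 0.439 by limma. The 3 OO libraries all lay below the 3 CO libraries for miR-101a-3p, and so for the miR-101c row with the same reads, by 8382 against 8461 CPM at the nearest. Of all 386 rows, 19.2% did not overlap between these groups, in either direction, and 0.0% passed by limma, with 47 rows at an unadjusted p under 0.05. The median log2 change of all rows in this contrast was 0.13 at the deposited scaling. Relative to that median the change was -0.31 for miR-101b-3p and -0.32 for miR-101a-3p. With TMM factors the median was -0.01 and the 2 changes were -0.33 (adjusted p = 0.324 by limma) and -0.35 (adjusted p = 0.331 by limma). For miR-101a-5p the log2 change was 0.21 (adjusted p = 0.650 by limma), and -0.08 without CO replicate 3.

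In OC against CC livers the log2 change was -0.07 for miR-101b-3p, -0.06 for miR-101a-3p and -0.01 for miR-101a-5p (adjusted p = 0.9999 for each by limma, where 0.0% of all rows passed, with 4 rows at an unadjusted p under 0.05). With log2 depth as a covariate the miR-101a-5p change was -0.46 (adjusted p = 0.474 by limma). No member separated these groups, against 8.81% of all rows. In OO against CC livers, where both diets differed, the log2 change was -0.07 for miR-101b-3p (adjusted p = 0.887), -0.15 for miR-101a-3p (adjusted p = 0.769) and -0.16 for miR-101a-5p (adjusted p = 0.887) by limma, where 0.259% of all rows passed. With log2 depth as a covariate the miR-101a-5p change was -0.41 (adjusted p = 0.238 by limma). The groups overlapped for every member, while 22.0% of all rows did not overlap. These contrasts share libraries with those above and are no separate support for them.

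The interaction asks whether the sons' diet had a different effect after an obesogenic than after a control mother. Its log2 value was -0.11 for miR-101b-3p (SE 0.173), -0.13 for miR-101a-3p (SE 0.188) and 0.21 for miR-101a-5p (SE 0.327), each with an adjusted p of 0.831 by limma. With log2 depth as a covariate the miR-101a-5p value was 0.45 (adjusted p = 0.410 by limma). No member passed, and 0.0% of all rows did, with 15 rows at an unadjusted p under 0.05. The 95% intervals reached from -0.49 to 0.27 for miR-101b-3p and from -0.50 to 0.93 for miR-101a-5p, so a different effect of the size of the estimates was not detectable with 3 libraries a group.

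**Figure D3:**
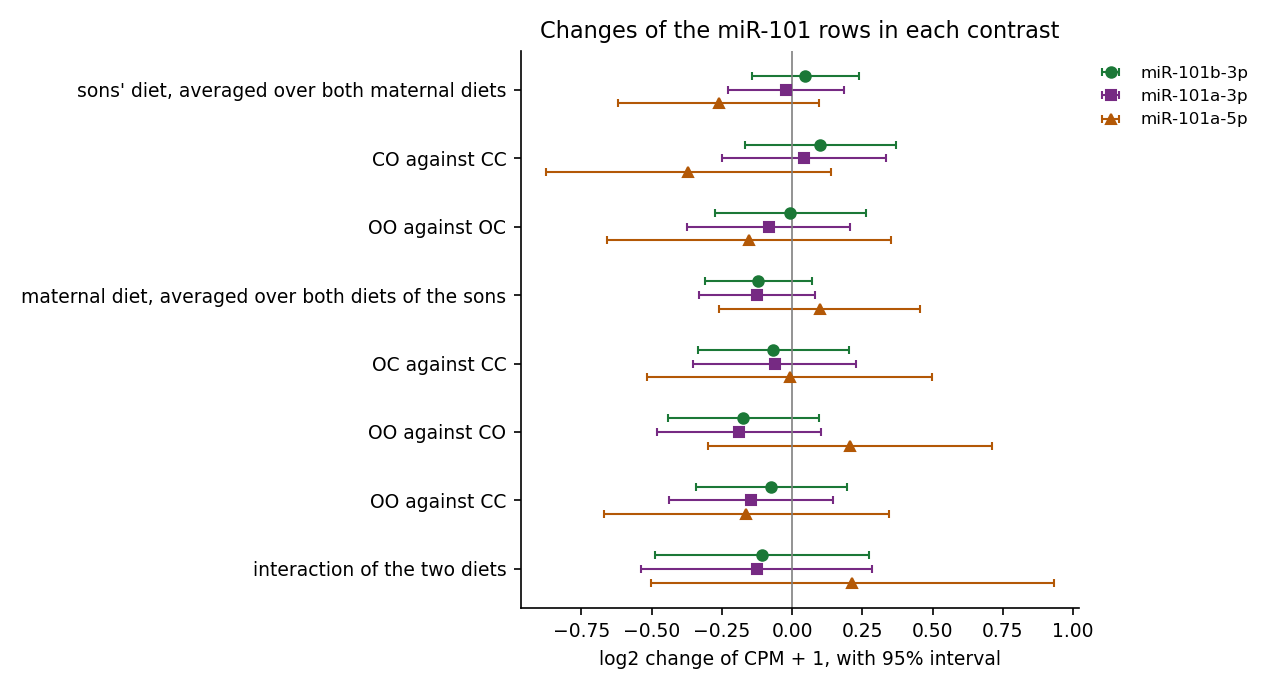
Log2 change of CPM + 1 with its 95% interval (horizontal axis) for miR-101b-3p, miR-101a-3p and miR-101a-5p in the 8 contrasts of the diet design (rows), from limma. Every interval includes 0, and those of miR-101a-5p, which had 50 to 405 reads a library, are the widest.

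The balance between the paralogs was compared within libraries, where the scaling cancels. The ratio of miR-101b-3p to miR-101a-3p was above 1 in all 12 libraries, from 1.01 in OC replicate 2 to 1.15 in OO replicate 3. It averaged 1.09 ± 0.0602 in OO, 1.08 ± 0.0467 in CO, 1.04 ± 0.0367 in OC and 1.04 ± 0.00971 in CC (SD, n = 3 each). In obesogenic-fed sons it ranged from 1.03 to 1.15 and averaged 1.09 ± 0.0485, against 1.01 to 1.08 and 1.04 ± 0.0241 in control-fed sons (n = 6 each), so that the groups overlapped. The mean difference between the rows was 718 ± 390 CPM in obesogenic-fed sons and 295 ± 165.2 CPM in control-fed sons. Reads within the 15 bases shared by the 2 mature arms match both genes. The match of the hairpins is longer, as a run of 16 bases of miR-101b-3p occurs in Mir101a and the bases before it also agree. Reads longer than 15 bases can therefore match both genes too. No source used here says how such reads were divided. These ratios are descriptions without a test.

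The balance between the arms of Mir101a was far from even. miR-101a-3p exceeded miR-101a-5p 399 to 938 times, with a median of 485. The ratio averaged 471 ± 29.3 in OO, 654 ± 246 in CO, 448 ± 62.8 in OC and 464 ± 50.0 in CC (SD, n = 3 each). The 938 belonged to CO replicate 3, while the other CO libraries had 513 and 511, below the highest OC library at 519. That library was also the shallowest, at 5.45 M reads, and the median of its rows lay 0.20 below the mean of the 12 libraries on the log2 scale.

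**Figure D4:**
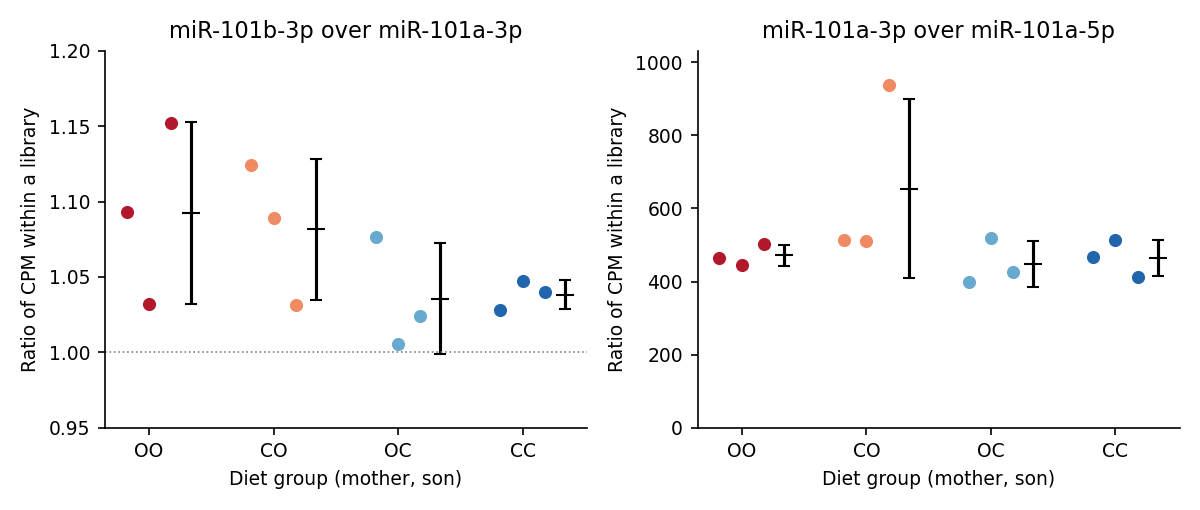
Ratio of CPM within a library of miR-101b-3p to miR-101a-3p (left, axis from 0.95) and of miR-101a-3p to miR-101a-5p (right) by diet group, with points for libraries and black marks for the group mean and SD (n = 3 each). The left ratios lie between 1.01 and 1.15, and on the right CO replicate 3 stands at 938 above the other libraries, which reach 519.

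The miRNAs whose levels were most like those of miR-101b-3p were found by Pearson r of log2(CPM + 1) over the 12 libraries, among 257 rows with a mean of at least 10 CPM, whose median r was -0.02. The closest were miR-34c-5p (r = 0.75), miR-19a-3p (0.70), miR-21b (0.63), miR-144-3p (0.60) and miR-148a-3p (0.60). The points share the library and its scaling. For miR-101a-5p the closest were miR-30b-5p (r = 0.93), miR-872-3p (0.91), miR-29c-3p (0.90), miR-301a-3p (0.90) and miR-872-5p (0.89), against a median of 0.25, and this second search was added after the values had been seen. miR-30b-5p was at its lowest, 964 CPM, in a CO library, against a CO mean of 1377 ± 357 and a CC mean of 1699 ± 103 CPM (SD, n = 3 each). The lowest CO value was also far below the CO median for miR-872-3p (17.6 against 44.9 CPM) and miR-29c-3p (401 against 709 CPM). The same held for miR-301a-3p (32.7 against 69.1 CPM) and miR-872-5p (60.8 against 117 CPM). miR-101a-5p itself had 9.18 CPM in CO replicate 3, and how far these r values rest on a single library was not tested.

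miR-144-3p, an erythroid miRNA that shares ACAGUA at bases 2 to 7 with miR-101a-3p, was far less abundant, at a mean of 226 CPM. It averaged 181 ± 9.02 CPM in OO, 301 ± 163 in CO, 212 ± 84.4 in OC and 210 ± 33.7 in CC (SD, n = 3 each). Its log2 change in OO against CO livers was -0.59 (SE 0.347, adjusted p = 0.396 by limma). The CO libraries of miR-144-3p spread from 164 to 481 CPM and overlapped with those of each other group.

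Other miRNAs reported to repress Ezh2 were compared with the family. Of 10 names, 8 were listed, and 0 of the 8 passed by limma in any of the 8 contrasts. Of all 386 rows, 0.0% to 0.777% passed in these contrasts, so 0 of 8 is near the background. The median log2 change of the 8 was -0.04 for the sons' diet, against -0.02 over all rows, and 0.08 for the maternal diet, against 0.08 over all rows. miR-26a-5p, the most abundant of them, averaged 26333 ± 3538 CPM in CO and 34062 ± 1668 CPM in CC (SD, n = 3 each), a log2 change of -0.38 (SE 0.114, adjusted p = 0.166 by limma). miR-26b-5p, its paralog, averaged 5749 ± 919 CPM in CO and 7277 ± 152 CPM in CC (log2 change -0.35, adjusted p = 0.211 by limma). For let-7a-5p this log2 change was 0.15 (adjusted p = 0.758) and for let-7c-5p 0.09 (adjusted p = 0.904), by limma.

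Of 14 miRNAs reported lower in hepatocellular carcinoma, apart from the family, all were listed, in 13 rows, and 0 of 13 passed by limma in any contrast. Their median log2 change was 0.03 for the sons' diet, against -0.02 over all rows, and 0.10 for the maternal diet, against 0.08 over all rows. Of all rows, 0.777% passed for the sons' diet and 0.0% for the maternal diet. miR-148a-3p, the most abundant, averaged 87248 ± 9161 CPM in CO and 86300 ± 459.5 CPM in CC (log2 change 0.01, adjusted p = 0.998 by limma). miR-122-5p averaged 24087 ± 4198 CPM in CO and 24650 ± 927 CPM in CC (log2 change -0.05, adjusted p = 0.915 by limma). The row of miR-199a-3p and miR-199b-3p, miRNAs of mesenchymal cells, averaged 1066 ± 150 CPM in CO and 1060 ± 128 CPM in CC (log2 change 0.01, adjusted p = 0.999 by limma).

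Markers of the cells of the liver were summed beside the family. The 3 hepatocyte markers, miR-122-5p, miR-192-5p and miR-194-5p, summed to 255064 to 327603 CPM over all libraries. miR-122-5p, the main hepatocyte-specific miRNA, averaged 23414 CPM, so most of this sum came from the other rows. The 2 endothelial markers summed to 24420 to 28052 CPM in OO, 15584 to 22984 in CO, 23722 to 24653 in OC and 24304 to 27100 in CC, so that the CO libraries lay below those of every other group. Between pairs of groups, 22.0% of all rows did not overlap in CO against CC and 19.2% in OO against CO, in either direction. The share of rows in which CO lay below every other group was not computed, so these shares are no background for that separation. The 4 listed of 5 erythroid markers summed to 2943 to 4532 CPM in OO, 4252 to 8999 in CO, 2950 to 5242 in OC and 2862 to 4255 in CC. The 5 leukocyte markers summed to 2679 to 3060 CPM in OO, 1752 to 2726 in CO, 2599 to 4093 in OC and 2510 to 3205 in CC. No row of these lists passed by limma, where at most 0.777% of all rows passed in any contrast. Their part in the values of the family was not tested.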

How the data were processed

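The deposited values are CPM, made by the authors from reads per mature miRNA, in 386 rows and 12 liver libraries, and none is 0. The submitters' processing notes list Bowtie 1.2.3. Small RNA libraries were made from total RNA, per the labels' protocols. No source used here names the genome build, the miRNA reference or how multiply matching reads were counted.

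Each column was tied to its sample by the column number in that sample's description. All values were whole multiples of 1 step per column, within a tolerance of 0.001 reads, which gave reads and the scaling total, from 5.45 to 22.2 M reads. Per cent and ratio values were computed from the deposited CPM. Differences were tested with limma 3.58.1 (R 4.3.3), fitted to log2(CPM + 1) over all 386 rows with a mean-variance trend, 4 group means and 8 contrasts, two-sided, with Benjamini-Hochberg adjustment within each contrast. The threshold was an adjusted p of 0.05. The added 1 CPM shrinks log2 changes of rows with low CPM. Other steps used Python 3.11.15, numpy 2.4.6, pandas 2.3.3, scipy 1.17.1 and matplotlib 3.10.9, and the fit was checked on simulated data.

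Named miRNAs were the members, rows sharing bases 2 to 7 with a member, the 5 rows closest to the most abundant member, up to 4 abundant members of each of 2 lists, and miR-122-5p. The members and lists were chosen with earlier results of these data known. Alternatives changed the scaling, the pseudocount (0.25 or 5 CPM), a filter at a mean of 10 CPM, the model, the libraries fitted, a depth covariate and sample weights.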

Additional observations from a re-analysis of the deposited data

Results flagged for a closer look

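In 20 groups of 6 libraries tested for a library far from the others, 3 were marked, where chance marks about 1 in 20 groups. All 3 rest on 1 value, the low miR-101a-5p of CO replicate 3, which is also the denominator of the ratio in 2 overlapping groups, so they are not separate marks to set against that chance rate. miR-101a-5p stood at 9.18 CPM in this library, below the other obesogenic-fed sons, which had 15.5 to 18.8 CPM. The ratio of miR-101a-3p to miR-101a-5p was 938 in this library, far above the other obesogenic-fed sons, at 446 to 513, and far above the other sons of control mothers, at 414 to 514. CO replicate 3 was the shallowest library, at 5.45 M reads, and its miR-101a-5p value rested on 50 reads. The part of depth in the low value was not tested.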

How the results depend on the processing

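No member passed in any of the 8 contrasts under any alternative run, and the lowest adjusted p of a member by limma was 0.134, for miR-101a-5p in CO against CC with log2 depth as a covariate. Few rows passed in any fit, at most 12, for the sons' diet with sample quality weights. Of the members' log2 changes recomputed, 624 kept their direction and their side of the threshold and 36 changed sign, all of them values that had not passed. These counts do not measure stability, because some alternatives could not move a log2 change. Dropping a library outside a contrast, fitting only the libraries compared and the 10 CPM filter leave it as it was. The miR-101c row is also counted beside miR-101a-3p, whose reads it nearly repeats. For the sons' diet, TMM factors gave 0.032 for miR-101a-3p and for the miR-101c row, and median-of-ratios factors gave 3.71e-06 for the miR-101c row. With log2 depth as a covariate, miR-101a-5p went to -0.23 for the maternal diet, -0.0052 for OO against CO and 0.045 for OO against OC, where miR-101b-3p went to 0.033. Without a change of sign, it moved miR-101a-5p to -0.46 in OC against CC, -0.41 in OO against CC and 0.45 in the interaction. Sample quality weights gave 0.0017 for miR-101a-5p in OC against CC.

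Leaving out 1 library at a time moved log2 changes across 0 as follows, with miR-101c as miR-101a-3p. miR-101a-3p ranged from -0.076 to 0.051 for the sons' diet, -0.039 to 0.11 in CO against CC, -0.19 to 0.060 in OO against OC, -0.21 to 0.048 in OC against CC and -0.24 to 0.018 in the interaction. miR-101b-3p ranged from -0.089 to 0.12 in OO against OC, -0.19 to 0.015 in OC against CC and -0.19 to 0.016 in the interaction. miR-101a-5p ranged from -0.046 to 0.19 for the maternal diet, -0.16 to 0.077 in OC against CC, -0.084 to 0.40 in OO against CO and -0.075 to 0.40 in the interaction, with the lower end of all but OC against CC without CO replicate 3. The cause was not tested.

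The 2 planned count models on recovered reads were not run, and limma-voom was run on those reads instead. No paired analysis was possible because the labels give no pairing, and the replicate numbers used here only follow the order of the samples. The shared title number of OC replicate 2 and OO replicate 3 would make only 1 pair. Depth limits miR-101a-5p most, at 50 to 405 reads a library.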
